A study of Mus musculus with 4 samples.

Results

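Semaphorins, plexins and neuropilins are the family described here. They were chosen by name, as every array target whose gene name is Sema3 to Sema7 with its letter, Plxn, Plxdc or Nrp. They make up 67 of 44170 targets and 28 of 24171 genes, with 20 semaphorins, 2 neuropilins, 4 plexins and 2 plexin domain containing genes. The other plexins of the mouse were not analysed here. The labels give Neuro2a (N2a) cells, a mouse neuroblastoma line, grown in DMEM with 10% FBS. By the labels, 2 arrays hold the control, cells given a scramble siRNA, and 2 hold cells given a Men1 siRNA. Menin, the Men1 product, is a nuclear protein that holds histone methyltransferases on chromatin. The comparison addresses how transcript levels differ after the knockdown. The labels do not say whether replicates are separate cultures, so each p-value rests on a spread between arrays that may be purely technical.

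Semaphorins are secreted or membrane-bound proteins that share a sema domain and steer growing axons, migrating neurons, blood vessels and immune cells. Plexins are their signalling receptors and act on small GTPases and the cytoskeleton. Secreted class 3 semaphorins mostly need a neuropilin, which holds the ligand and pairs with an A-type plexin, and neuropilins also serve as co-receptors for vascular endothelial growth factor.

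Values are intensities on a linear scale. Targets were counted as well above background from an intensity of 100, the lowest level kept in the authors' value table, whose 20620 targets are those that reached it on all 4 arrays. Array medians lay between 145.9 and 151.2, and random control probes read 42.8 to 52.3. Men1 itself read 6985 and 6222 under scramble siRNA against 2764 and 4109 under Men1 siRNA (log2 change −0.97 ± 0.35, SE, n = 2; limma adjusted p = 0.314). That was at the brighter of its 2 targets. As the mean of both targets the Men1 change was smaller, at −0.58 (limma adjusted p = 0.45). With 1 array left out the change at the brighter target ran from −1.25 to −0.68. As to the labelled lineage, the catecholamine enzyme gene Th was near background, with 95.0 and 128.9 under scramble siRNA against 141.6 and 112.8 under Men1 siRNA. Tbr1, a factor gene of cortical neurons, read 1450 to 3150 over the 4 arrays. Of 7 endothelial, 7 fibroblast and 7 epithelial markers, 0 had a positive change. Their summed intensities went from 9076 and 5537 to 1525 and 1531 (endothelial), from 32786 and 35014 to 3884 and 3928 (fibroblast) and from 24009 and 16671 to 1067 and 1898 (epithelial). The part of these markers in the values below was not tested, and fewer cells of a type and less RNA per cell cannot be told apart.

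No family member passed the threshold, a limma p under 0.05 after Benjamini-Hochberg adjustment over all genes, whereas 0.389% of all genes did (0.0372% higher and 0.352% lower). Sema5a came nearest, with an intensity on the Men1 siRNA arrays of 0.144 times the scramble level (adjusted p = 0.0592). An unadjusted p under 0.05 was found for 7 members, against 14.2% of all genes. Lower values were seen for 5 of them, Sema5a, Sema3b, Sema4a, Sema3e and Sema6a, where 7.74% of all genes were lower at that level. Higher values were seen for 2, Sema3a and the neuropilin gene Nrp2, where 6.47% of all genes were higher. The arrays of the groups did not overlap for 17 of 28 members, 11 higher and 6 lower with Men1 siRNA, against 47.5% of all genes (25.8% higher and 21.7% lower). The median log2 change was 0.26 over the members and 0.06 over all genes, and 16 members had a positive change, as did 54.5% of all genes. An absolute log2 change of at least 1 was seen for 5 members, where 14.6% of genes reached it.

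**Figure D1:**
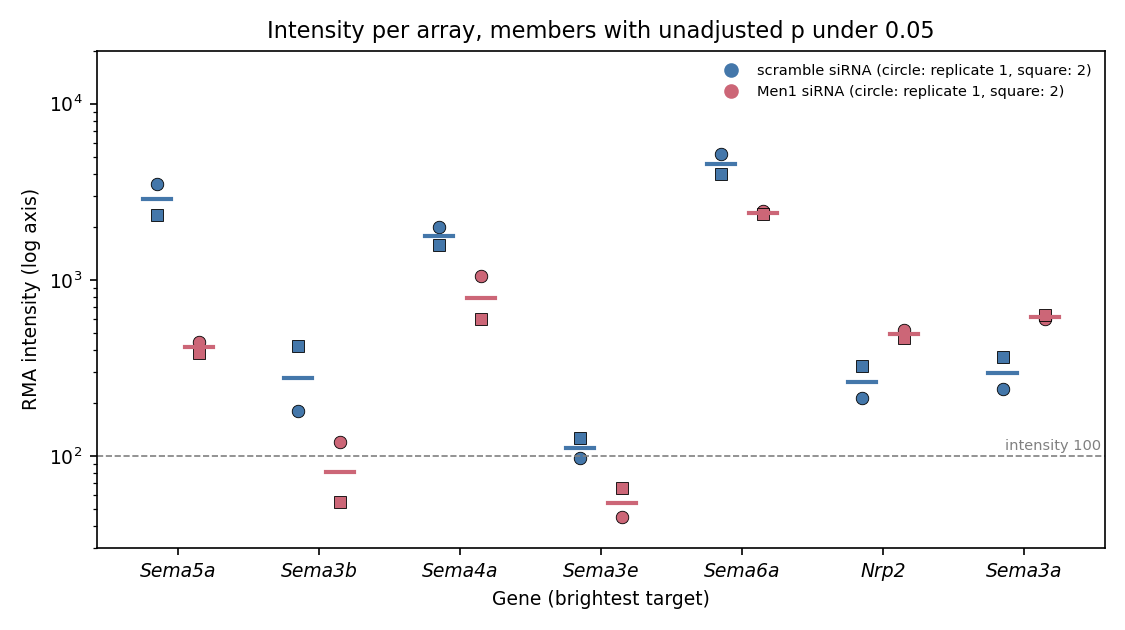
RMA intensity on a log axis for the 7 members with an unadjusted limma p under 0.05, at the brightest target of each gene; circles and squares are replicates 1 and 2, bars are the mean of log2 values of the 2 arrays of a group, and the dashed line is an intensity of 100. The 7 were chosen by p on these same arrays, and their groups do not overlap, as for 47.5% of all genes. Sema5a shows the widest gap, from 3521 and 2332 with scramble siRNA to 442.4 and 386.0 with Men1 siRNA.

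**Figure D2:**
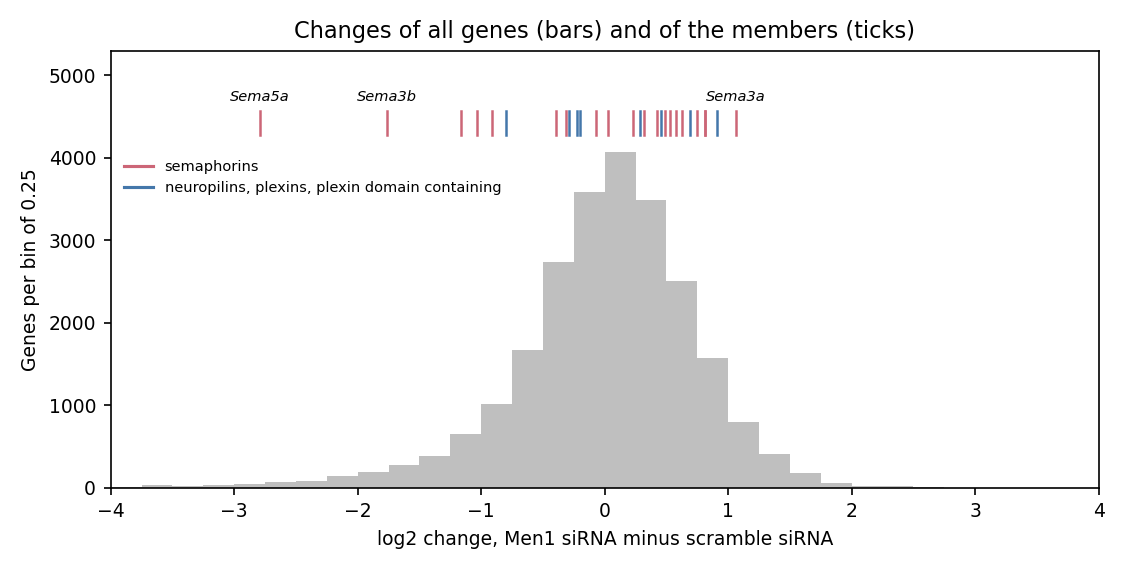
Number of genes in each bin of log2 change, Men1 siRNA minus scramble siRNA (grey bars, drawn between −4 and 4), with each of the 28 members as a tick above. Sema5a (−2.79) and Sema3b (−1.76) stand in the lower tail, and most other members lie within the bulk of the genes.

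Sema5a encodes a transmembrane semaphorin with thrombospondin repeats that can attract or repel axons. Its brightest target, a transcript placed on chromosome 15, 32531429 to 32626096 on MM9, read 3521 and 2332 under scramble siRNA against 442.4 and 386.0 under Men1 siRNA. Both Men1 siRNA arrays lay far below both scramble siRNA arrays, at a mean of 414.2 ± 39.9 against 2927 ± 841 (SD, n = 2). The log2 change was −2.79 ± 0.36 (SE), and 0.856% of all genes had a larger change in either direction. This value sits close to the threshold, which it passed in 4 of 13 other settings, with limma adjusted p-values from 0.000839 to 0.498 over the settings. It was at −0.47 as the mean of all 8 Sema5a targets (adjusted p = 0.498).

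The 8 targets of Sema5a did not give one picture. The gene lies on the + strand in RefSeq, and the 2 targets that reach furthest towards its 3′ end were the 2 brightest and both were lower. The second of them, 32277018 to 32620295 on MM9, read 551.1 and 599.4 under scramble siRNA against 196.0 and 237.9 under Men1 siRNA (log2 −1.41 ± 0.33, SE, n = 2). Of the other 6, which all start at 32174567 on MM9, 4 were under 100 on all 4 arrays. One, ending at 32549004, read 116.1 and 156.4 against 110.9 and 165.7. Another, ending at 32572107, went the other way, with 43.3 and 114.3 against 198.3 and 200.5 (1.50 ± 0.52). Over the 4 targets that reached 100 on at least 2 arrays, limma's diffSplice test that they changed unlike each other gave an adjusted p of 0.0547, where 0.0938% of genes with several such targets passed. That test was added after the target values were seen, and no setting took it past the threshold. A limit is that a target at background cannot show a fall.

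**Figure D3:**
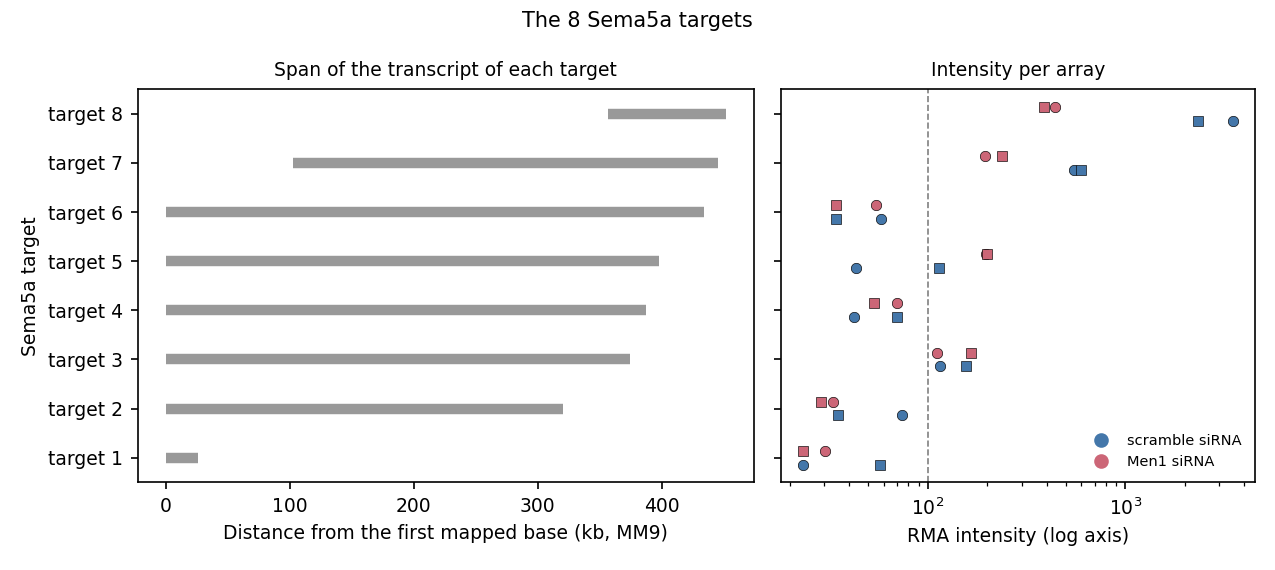
Left, span of the transcript behind each of the 8 Sema5a targets, as distance in kb from the first mapped base on MM9, ordered by where the span ends. Right, RMA intensity on each array on a log axis, with scramble siRNA in blue, Men1 siRNA in red, circles for replicate 1, squares for replicate 2 and a dashed line at 100. The 2 spans that end last, at 445.7 and 451.5 kb, hold the highest scramble siRNA values and the largest negative changes, −1.41 and −2.79.

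RefSeq promoter windows, 250 bases before to 50 after a transcription start on GRCm38.p6, were matched for 23 of the 28 members, with 34 windows in all. The 4 below are shown because these members had an unadjusted p under 0.05 and a single window, so that each can be read beside the 1 start it belongs to. Capitals mark the GC box GGGCGG, the CCAAT box CCAAT, the TATA box TATAAA and the E-box CACGTG on either strand; matches that overlap were each counted. The windows are chr15:32244563-32244862 (+) for Sema5a, chr5:13396534-13396833 (+) for Sema3a, chr5:14025026-14025325 (+) for Sema3e and chr1:62703067-62703366 (+) for Nrp2.
Sema5a: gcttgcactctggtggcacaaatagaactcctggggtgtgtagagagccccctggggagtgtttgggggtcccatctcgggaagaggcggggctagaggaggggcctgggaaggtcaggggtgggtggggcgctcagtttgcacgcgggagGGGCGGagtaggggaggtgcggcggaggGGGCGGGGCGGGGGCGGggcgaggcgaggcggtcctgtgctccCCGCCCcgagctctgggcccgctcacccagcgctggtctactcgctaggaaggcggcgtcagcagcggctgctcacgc
Nrp2: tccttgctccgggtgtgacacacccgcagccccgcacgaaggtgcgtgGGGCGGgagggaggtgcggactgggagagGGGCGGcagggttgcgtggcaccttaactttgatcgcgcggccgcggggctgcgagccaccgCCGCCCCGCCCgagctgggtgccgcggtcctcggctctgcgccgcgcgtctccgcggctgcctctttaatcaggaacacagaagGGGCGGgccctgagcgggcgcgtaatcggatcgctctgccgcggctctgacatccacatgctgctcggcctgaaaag
Sema3e: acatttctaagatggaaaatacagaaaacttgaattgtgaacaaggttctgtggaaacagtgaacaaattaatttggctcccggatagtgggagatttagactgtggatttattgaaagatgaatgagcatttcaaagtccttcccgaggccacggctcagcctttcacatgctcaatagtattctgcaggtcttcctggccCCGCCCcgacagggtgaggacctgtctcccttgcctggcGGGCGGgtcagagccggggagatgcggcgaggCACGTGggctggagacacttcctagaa
Sema3a: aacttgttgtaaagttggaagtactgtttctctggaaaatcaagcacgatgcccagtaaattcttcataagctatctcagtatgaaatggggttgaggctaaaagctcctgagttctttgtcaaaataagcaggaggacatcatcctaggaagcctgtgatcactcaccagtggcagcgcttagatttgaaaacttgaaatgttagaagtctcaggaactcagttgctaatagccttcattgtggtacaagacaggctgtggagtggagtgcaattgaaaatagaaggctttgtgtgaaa

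The Sema5a and Nrp2 windows were alike in GC boxes and GC content, though not in CpG. Each held 5 GC boxes, with a GC content of 71.3% and 23 CpG for Sema5a and 70.7% and 37 CpG for Nrp2. The fitted changes of the 2 genes had opposite signs. That of Sema5a was read at a target whose span starts 356.9 kb past the first mapped base on MM9. The span of its second lower target starts at 102.5 kb. Where these spans start relative to the window was not tested. The Sema3e window held 2 GC boxes and 1 E-box at 50.7% GC. Of these motifs 0 were found in the Sema3a window, which had 41.3% GC and 2 CpG. GC boxes were in 70.6% of the member windows and in 35.6% of all 32817 windows. Member windows also had a median of 62.2% GC and 14 CpG, against 52.7% and 7 over all windows. The part of this composition in the GC box share was not tested. Of the 23 members with a window, 15 had a single one, so some genes count more than once. CCAAT boxes were in 20.6% of member windows and 37.4% of all, E-boxes in 8.8% and 7.1%, and TATA boxes in 0 of 34 member windows and 13.6% of all. A match is a description of the letters in the window, and a window without one says nothing of the factor that binds it.

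Secreted class 3 semaphorins, the ligands of the neuropilin system, varied among themselves. Of 7 genes, 4 had positive and 3 negative changes, from −1.76 to 1.06, with 0 past the threshold. Sema3a, the classical repellent of sensory and cortical axons (chromosome 5, 13398996 to 13602565 on MM9), read 240.6 and 364.5 under scramble siRNA against 601.7 and 634.8 under Men1 siRNA. Both Men1 siRNA arrays were higher than both others, a log2 change of 1.06 ± 0.35 (SE, n = 2; limma adjusted p = 0.288). Its other target showed the same order, with 171.2 and 251.7 against 482.7 and 535.7 (1.29 ± 0.36).

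Sema3b, a secreted semaphorin also known as a tumour suppressor gene, read 179.7 and 420.5 under scramble siRNA against 120.3 and 54.6 under Men1 siRNA. Its log2 change was −1.76 ± 0.58 (SE, n = 2; adjusted p = 0.288), and its size is uncertain because 1 Men1 siRNA array was under 100. The other Sema3b target did not follow, reading 283.2 and 51.7 against 53.5 and 267.8, so that the arrays of a group differed more than the groups. Sema3e, which binds plexin D1 without a neuropilin, was dim, with 97.2 and 125.8 against 44.7 and 65.6. With both Men1 siRNA arrays under 100 it was at least 1.11-fold lower (adjusted p = 0.306), a bound set by the mean scramble level over 100 and taken on the log2 scale. Sema3g, a semaphorin of endothelial cells, was at least 1.2-fold higher by the same bound, with 93.3 and 86.1 against 127.6 and 112.8.

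The other class 3 ligands overlapped between groups. Sema3c, a cue in the heart outflow tract and in cortex, read 401.6 and 1040 under scramble siRNA against 893.4 and 424.8 under Men1 siRNA, so that the spread within each group exceeded the difference between them. Sema3f, the repellent that acts through Nrp2, read 132.1 and 331.8 against 254.2 and 269.4. Both targets of Sema3d were near background, with 43.6 to 115.2 at the brighter one.

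Both neuropilins had positive changes. Nrp2, the co-receptor preferred by Sema3f (chromosome 1), read 214.0 and 322.9 under scramble siRNA against 521.5 and 468.6 under Men1 siRNA. The groups were apart, with a log2 change of 0.91 ± 0.35 (SE, n = 2; limma adjusted p = 0.34). All 3 Nrp2 targets were positive, from 0.59 to 1.26, and the third lay under 100 on all arrays. Nrp1, the co-receptor of Sema3a (chromosome 8), read 413.2 and 636.9 against 612.6 and 635.0, and its groups overlapped at this target (0.28 ± 0.36; adjusted p = 0.752). Its next brightest target was apart, at 173.3 and 202.1 against 260.3 and 322.1 (0.63 ± 0.34). Of its 4 targets 4 were positive.

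Plexins, the receptors, showed small changes, with 0 of 4 past the threshold and 0 of 4 at an unadjusted p under 0.05. Plxna2, a receptor of Sema3a with neuropilin and of Sema6a without it, read 3293 and 3327 under scramble siRNA against 4596 and 4507 under Men1 siRNA. Replicates were close together and the groups apart, at a log2 change of 0.46 ± 0.30 (SE, n = 2; adjusted p = 0.54), while its second target had 0.10. Plxna3, a receptor of class 3 ligands with Nrp2, read 1008 and 1159 against 1057 and 832.7 (−0.20 ± 0.33), with 0.17 and 0.38 at its other targets. Plxnb2, the receptor of class 4 ligands in neural progenitors, read 2158 and 1115 against 873.8 and 1849, so that its replicates differed more than its groups. Plxnb3, a receptor known from oligodendrocytes, was under 100 on 3 of 4 arrays and gave no usable difference.

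Plxdc1 and Plxdc2 carry a plexin-like domain but are not plexins, and Plxdc1 is known as a marker of tumour endothelium. Plxdc1 read 103.2 and 231.5 under scramble siRNA against 60.3 and 130.6 under Men1 siRNA (−0.80 ± 0.57, SE, n = 2), and Plxdc2 881.5 and 675.9 against 825.6 and 525.9 (−0.23 ± 0.38). The groups overlapped for both, and with 1 array left out the change of Plxdc1 ran from −1.38 (without scramble siRNA replicate 1) to −0.22 (without replicate 2). The endothelial marker list on the same arrays had a median log2 change of −2.02 over 7 genes.

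Class 4 semaphorins are transmembrane ligands, mostly of B-type plexins, with roles in immune cells and in brain. Of 6 genes 3 had positive and 3 negative changes. The groups did not overlap for 5, where 47.5% of all genes did not overlap. Sema4a, known from T cell priming and from the retina (chromosome 3, 88239880 to 88258796 on MM9), read 2003 and 1579 under scramble siRNA against 1046 and 600.6 under Men1 siRNA. That is a log2 change of −1.17 ± 0.40 (SE, n = 2; limma adjusted p = 0.296) at its only target. Immune markers of the myeloid list had 2 of 6 positive changes and a median of −0.69.

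Sema4g was the largest positive change of the class, with 1469 and 2342 against 3419 and 2840 (0.75 ± 0.37) and the same direction at its other target (0.53). Without scramble siRNA replicate 1 its change was 0.41, and that of Sema4f 0.17. Sema4f, a semaphorin of neurons and glia, read 1089 and 2048 against 2409 and 2200, whereas its dimmer target overlapped between groups. Sema4b read 225.0 and 208.5 against 272.2 and 339.9, while the groups overlapped at its other 3 targets, 1 of them at 0.002. These 3 genes were higher on both Men1 siRNA arrays without passing the test.

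Sema4c, a ligand of plexin B2, read 3394 and 2672 against 2141 and 2460 (−0.39 ± 0.33, SE, n = 2), but 2 of its 4 targets were positive. Sema4d, the CD100 antigen and ligand of plexin B1, read 1783 and 1163 against 1034 and 1302, with 0.23 at its second target. The direction of both therefore depends on the target read.

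Sema5b, the other thrombospondin repeat semaphorin, did not follow Sema5a. It read 798.9 and 1498 under scramble siRNA against 1813 and 2046 under Men1 siRNA (0.82 ± 0.41, SE, n = 2; adjusted p = 0.434), and the change was 0.36 without scramble siRNA replicate 1 and 1.27 without replicate 2. Its second target read 70.0 and 53.1 against 242.0 and 186.5, at least 2.12-fold higher. In the fit over all targets that target was at an adjusted p of 0.139, and among the 67 targets only the brightest Sema5a target was lower (0.0594).

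Class 6 semaphorins are transmembrane ligands of A-type plexins that guide neurons in cerebellum, hippocampus and retina. Sema6a (chromosome 18), a ligand of plexins A2 and A4, read 5150 and 4004 under scramble siRNA against 2464 and 2358 under Men1 siRNA (log2 −0.91 ± 0.32, SE, n = 2; limma adjusted p = 0.307). Its second target overlapped between groups, with 1627 and 1166 against 1293 and 1409 (−0.03 ± 0.35). The test that the Sema6a targets changed unlike each other did not pass (adjusted p = 0.613).

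Sema6b and Sema6c had one sign at each of their targets. All 5 Sema6c targets were positive, from 0.65 to 1.23. The brightest read 555.1 and 1136 under scramble siRNA against 1450 and 1333 under Men1 siRNA (0.81 ± 0.43, SE, n = 2; adjusted p = 0.458), and the next 390.1 and 355.3 against 702.0 and 698.6 (0.91 ± 0.32). The arrays of the groups did not overlap at any of the 5, where 46.6% of all targets did not overlap. The spans of the 5 targets overlap and were read on the same arrays, so these are not 5 independent results. Scramble siRNA replicate 1 was, however, the lowest array at the brightest target. The change there was 0.29 without that array and 1.32 without scramble siRNA replicate 2. Both Sema6b targets were apart as well, with 3690 and 3943 against 5450 and 5576 (0.53 ± 0.30) and 1232 and 1099 against 1938 and 2178 (0.82 ± 0.33). Sema6d, whose receptor is plexin A1, read 1698 and 2223 against 2480 and 1579 and overlapped.

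Sema7a, a GPI-anchored semaphorin that signals through beta1 integrin and plexin C1, read 936.1 and 1063 under scramble siRNA against 1309 and 1695 under Men1 siRNA (0.58 ± 0.33, SE, n = 2; adjusted p = 0.48).

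**Figure D4:**
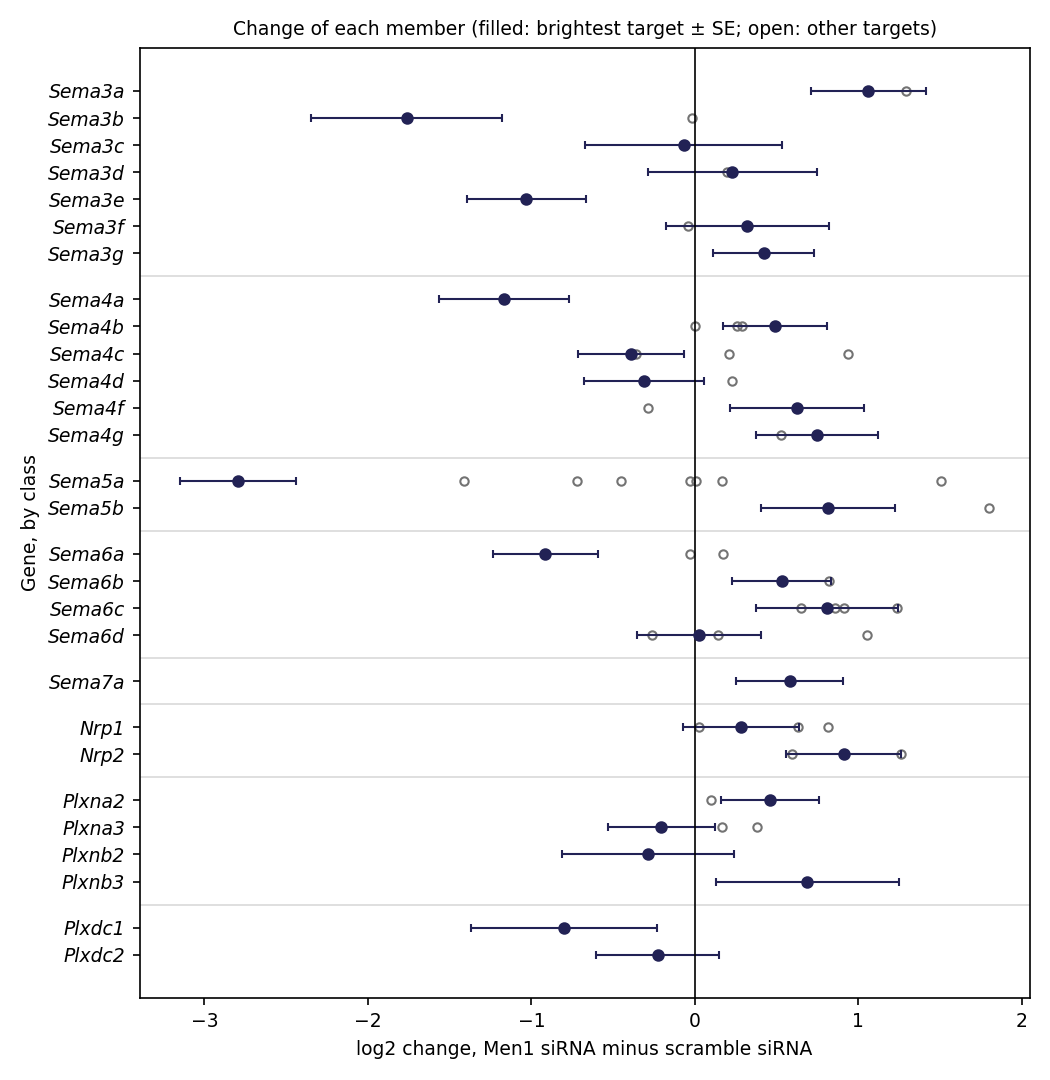
Log2 change, Men1 siRNA minus scramble siRNA, of the 28 members by class; filled points are the brightest target of each gene with the moderated standard error (n = 2 arrays per group), open circles are its other targets. Sema5a targets run from −2.79 to 1.50, while all targets of Sema6c, Sema6b, Sema3a, Nrp2 and Nrp1 lie above 0.

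Of the 19 members with several targets, 11 had targets of one sign. Over all 67 targets 0 passed limma's threshold after adjustment over all targets, where 0.34% of targets did, and 17 were at an unadjusted p under 0.05, where 13.6% were. The groups did not overlap for 36 targets, 27 higher and 9 lower, where 46.6% of all targets did not overlap (25.3% higher and 21.3% lower). Targets of the same gene are not independent, so some genes count more than once in these numbers. Between 15 and 20 of the 67 targets were under 100 on each array, and 12 on all 4. Scramble siRNA replicate 1 was below replicate 2 for 12 of the 16 members with a positive change, as for 62.3% of all genes with one. Without that array, only Sema3b and Sema5a (2 members) were at an unadjusted p under 0.05, as were 8.71% of all genes. Without scramble siRNA replicate 2 there were 7 (Nrp2, Sema3a, Sema4f, Sema5a, Sema5b, Sema6a and Sema6c), against 13.9% of all genes. Without Men1 siRNA replicate 1 there were 3 (Sema3b, Sema4a and Sema5a; 13.2% of genes), and without Men1 siRNA replicate 2 also 3 (Plxnb3, Sema3e and Sema5a; 10.6%). Sema5a was at that level with any 1 of the 4 arrays left out.

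Partners and effectors of semaphorin signalling were read from a list of 52 genes, of which 47 were measured. None passed the threshold, 31 changes were positive and 16 negative, and the median log2 change was 0.25. Partners at an unadjusted p under 0.05 were 3 higher and 3 lower of 47, near the 6.47% higher and 7.74% lower over all genes, so the counts say nothing particular of the list. Of the lower ones, Flt1 and Kdr, receptors of vascular endothelial growth factor that pair with neuropilins, read 563.5 and 407.2 against 73.3 and 52.0 (at least 4.79-fold lower; adjusted p = 0.0577) and 799.4 and 742.5 against 189.0 and 192.3 (−2.02 ± 0.30, SE, n = 2; adjusted p = 0.0846). Ptk7, a pseudokinase receptor of planar polarity, read 1621 and 1071 against 252.2 and 329.4 (−2.19 ± 0.37; adjusted p = 0.0989). As the mean of all targets Kdr was at −1.15 and Ptk7 at −0.69 (adjusted p = 0.516). Flt1 and Kdr are also 2 of the 7 endothelial markers.

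Nrcam, Chl1 and Mical2 were the 3 higher partners. The adhesion molecule genes Nrcam and Chl1, which bind neuropilins on axons, read 1254 and 1689 against 3170 and 2668 (1.00 ± 0.34, SE, n = 2) and 1545 and 2425 against 4441 and 3656 (1.06 ± 0.37). Mical2, a flavoenzyme gene of a family that oxidises actin below plexins, read 770.7 and 809.9 against 1416 and 1521 (0.89 ± 0.30). Limma's adjusted p was 0.291, 0.303 and 0.295 for them. As the mean of all targets Mical2 was only at 0.18 (adjusted p = 0.817) and Chl1 at 0.59. All 5 collapsin response mediator genes were positive, from 0.35 to 0.74, as were all 3 MICAL genes, without passing. GTPases and their regulators had 10 of 14 positive changes and a median of 0.23. The other classes leaned less or the other way. Kinases had 5 of 8 positive changes (median 0.14) and scaffolds 1 of 2 (−0.20). Cell adhesion and receptor tyrosine kinase co-receptors had 6 of 12 (−0.35) and other semaphorin receptors 1 of 3 (−0.65). Over all genes 54.5% of changes were positive. Markers of other neural cells were mostly higher on the Men1 siRNA arrays. Of 7 glial markers 6 were positive, with a median of 0.44 and sums of 7189 and 7855 under scramble siRNA against 9190 and 8755 under Men1 siRNA. The groups overlapped for Gfap and Aqp4 among the 6. The other marker, Sox10, was lower, with 2429 and 2803 under scramble siRNA against 972.6 and 1407 under Men1 siRNA (log2 −1.16). Of the cortical neuron genes, Tbr1 had a log2 change of 0.71, Neurod6 of 0.19 and Slc17a7 of 0.85, none past the threshold, and the part of these cells in the partner values was not tested.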

How the data were processed

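Each of the 4 arrays was deposited as linear intensities with 1 value per target of 3 probes. Per the file headers these are robust multi-array averages (RMA). Background correction is not given in the sources used here. Labelling protocol and file format are NimbleGen's, although an Agilent array is named in the series text. The authors' value table holds 44 of the 67 family targets, all equal within a relative tolerance of 1e-04 to values of the same group, and served as an alternative.

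Symbols came from the array annotation on MM9, updated through gene IDs (21583 of 24204 matched); 2284 targets without a symbol were left out of the gene fit, and the row of random control probes out of both fits. Intensities were converted to log2 without a pseudocount. A gene was read at its brightest target (mean log2 over the 4 arrays), and a second fit used all targets. Differences are Men1 siRNA minus scramble siRNA, from limma 3.58.1 (R 4.3.3; lmFit, eBayes). Group was the only term, and p-values are two-sided and adjusted by Benjamini-Hochberg over all genes or all targets. The fit was tested on simulated data. The number of arrays limits the precision: with 2 a group, an exact permutation test could reach no p under 0.33. If a group had both arrays under 100, "at least" folds set the mean log2 value of the brighter group against that of the dimmer one with each array raised to 100.

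Family, partner and marker lists were chosen with earlier results of these data known. Some listed marker genes are not reported here. Values per array were due for members at an unadjusted p under 0.05, an absolute log2 change of at least 1 or targets at least 2 log2 units apart, for Nrp1, Nrp2, Sema3a and A-type plexins, and for the 6 partners with the smallest p; those of other members show the spread of their class. The alternatives tried were a block on replicate number, each array left out, quantile and cyclic loess normalization, the value table, targets at 100 or more on at least 2 arrays, a pseudocount of 32, the mean of all targets and a trended prior. The target standing for a gene was kept in each, except where targets were removed. A crossed block and the diffSplice test were added after the data were seen. Promoter sequences are from RefSeq on GRCm38.p6, and no coordinate was carried between builds. Files were read with pandas 2.3.3 and numpy 2.4.6 in Python 3.11.15 and plotted with matplotlib 3.10.9.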

Additional observations from a re-analysis of the deposited data

How the results depend on the processing

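No member passed the threshold in the reported fit, with each of the 4 arrays left out, with quantile or cyclic loess normalization, with the mean of all targets or with the replicate number as a block (0 members and 0 member targets in each, where the latter could be fitted). Sema5a alone passed, so that 1 member was called, with the value table (adjusted p = 0.00713), the filter on dim targets (0.0336), the pseudocount of 32 (0.0252) and the trended prior (0.000839). Member targets called in these 4 settings were 2 with the value table, both of Sema5a, and 1 in each of the others. Partner genes called were 2 with the value table, the filter and the pseudocount, and 3 with the trended prior. Calls over all genes numbered 94, with 418 in the value table, 286 with the filter, 252 with the pseudocount and 711 with the trended prior. With any 1 array left out 0 genes passed in limma, with 2105 to 3357 at an unadjusted p under 0.05. Fewer genes were tested in the value table (12701) and under the filter (16341) than in the reported fit (24171). The standard error of Sema5a also differed, at 0.307 and 0.33 against 0.355. The cause of the differing calls was not tested for any setting.

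Replicates of one number deviated in opposite directions (r = −0.17 across all targets and −0.33 across member targets). With 2 arrays a group, crossed numbers give the same r with the other sign (0.17 and 0.33) by construction. That check therefore cannot decide a pairing, and the number was not taken to pair the arrays. Image names inside the files give another number than the labels for Men1 siRNA replicate 1 and leave that of replicate 2 unsettled, so the replicate numbers of these arrays, though not their group, are unsure; if exchanged, the crossed block is the one of same numbers. With the replicate number of the labels as a block 69 genes and 0 members passed. With crossed numbers as a block, added after that check, 0 genes passed, with 3980 at an unadjusted p under 0.05. The member median stayed between 0.08 and 0.40 over all settings.

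Of the 28 members, 18 kept their direction in every setting. With an array left out, the log2 change ran from −0.03 to 0.59 for Nrp1, −0.55 to 0.10 for Plxdc2, −0.83 to 0.25 for Plxnb2, −0.07 to 1.45 for Plxnb3, −0.76 to 0.62 for Sema3c, −0.47 to 0.93 for Sema3d, −0.34 to 0.99 for Sema3f and −0.30 to 0.35 for Sema6d, each crossing 0. Leaving out an array also moved the changes of Sema3b (−2.38 to −1.15), Sema4a (−1.57 to −0.77), Sema4c (−0.56 to −0.22), Sema4d (−0.62 to −0.003) and Plxna3 (−0.38 to −0.03). Against the reported fit these moves were over 1.5 times, without a turn of sign. Smaller moves against that fit were seen for Nrp2 (0.614 to 1.208) and Sema3a (0.762 to 1.361). The same held for Sema3e (−1.307 to −0.753), Sema4b (0.33 to 0.65) and Sema7a (0.393 to 0.765). As the mean of all targets Plxna3 had 0.11 and Sema4c 0.10, and Sema6d had −0.041 under cyclic loess. The cause of these turns was not tested.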
